A study of Arabidopsis thaliana with 18 samples.

Results

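The light-dependent protochlorophyllide oxidoreductases PORA, PORB and PORC and the late chlorophyll enzymes DVR, CAO and CHLG were followed by RNA sequencing in dark-grown Arabidopsis thaliana seedlings. The 6 genes were taken by locus identifier from 32833 genes in each library: PORA AT5G54190, PORB AT4G27440, PORC AT1G03630, DVR AT5G18660, CAO AT1G44446 and CHLG AT3G51820. All 6 were found, and all 6 were among the 21903 genes that passed the filter on low counts. There were 18 libraries of 3-day-old whole seedlings grown in darkness at 21 °C, 3 for each of 6 groups. The groups combined 3 genotypes, all in the Columbia ecotype, with 1/2 MS medium alone or with 1% sucrose added. Col-0 was the wild type, gnc gnl is by its label mutant in both GNC and GNL, genes of B-GATA transcription factors, and GNLox is a line that overexpresses GNL. The sources used here do not give the alleles, the promoter of the overexpression construct or the number of independent lines. Nothing says that the replicates were separate cultures. The p-values therefore reflect only how these samples varied, which may be technical.

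Protochlorophyllide oxidoreductase (POR) reduces protochlorophyllide to chlorophyllide, a step that in flowering plants needs light. In darkness PORA and PORB, together with NADPH and protochlorophyllide, build up in the prolamellar bodies of etioplasts, the plastids of etiolated cotyledons, and turn the pigment over at the first flash of light. PORA is the isoform best known from etiolated seedlings, PORB acts in the dark and in the light, and PORC is the isoform of green tissue. DVR reduces the divinyl forms of the pigment to the monovinyl forms. CHLG, chlorophyll synthase, attaches the isoprenoid tail to chlorophyllide, and CAO, chlorophyllide a oxygenase, makes the b form of the pigment. B-GATA factors of the GNC and GNL type are known as promoters of greening and chloroplast formation.

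The upstream sequences of PORA, PORB and CAO are shown because PORA followed PORB most closely between libraries, while CAO followed PORB least. Each is the 300 bases before the annotated gene start, written 5′ to 3′ on the strand of the gene, from the RefSeq copy of the genome (build TAIR10.1), whose gene positions equal those of the deposited tables for all 6 genes. The PORA window is chr5:21992815-21993114 on the minus strand, the PORB window is chr4:13725246-13725545 on the plus strand, and the CAO window is chr1:16851272-16851571 on the minus strand. Capitals mark matches to the 4 motifs searched, which did not overlap one another.
PORA: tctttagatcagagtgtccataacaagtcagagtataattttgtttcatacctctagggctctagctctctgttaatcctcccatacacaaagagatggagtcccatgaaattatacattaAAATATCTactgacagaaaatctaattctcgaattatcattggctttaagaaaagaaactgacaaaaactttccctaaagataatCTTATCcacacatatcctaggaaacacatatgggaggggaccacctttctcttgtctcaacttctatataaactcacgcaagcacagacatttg
PORB: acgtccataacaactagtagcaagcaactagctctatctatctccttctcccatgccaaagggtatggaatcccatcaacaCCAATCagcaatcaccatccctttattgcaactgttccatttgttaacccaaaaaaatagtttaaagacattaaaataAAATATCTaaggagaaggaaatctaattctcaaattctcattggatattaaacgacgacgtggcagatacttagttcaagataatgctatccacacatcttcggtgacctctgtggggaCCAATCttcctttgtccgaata
CAO: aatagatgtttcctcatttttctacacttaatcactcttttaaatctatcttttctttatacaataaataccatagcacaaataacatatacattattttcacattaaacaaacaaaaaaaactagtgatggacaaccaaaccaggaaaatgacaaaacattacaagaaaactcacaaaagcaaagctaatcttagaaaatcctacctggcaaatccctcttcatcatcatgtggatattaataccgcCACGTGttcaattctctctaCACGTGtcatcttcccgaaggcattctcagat
Both strands were searched. The first motif was the G-box, CACGTG. Another, GATAAG, is a form of the core bound by GATA factors. The evening element was searched as AAATATCT. The last motif was CCAATC. CAO held 2 G-boxes, at 52 to 47 and 32 to 27 bases before its start, and none of the other 5 genes held one. A G-box was present in 7.08% of the 300-base windows of 27419 protein-coding genes. PORA held 1 GATAAG, on the opposite strand at 94 to 89 bases before its start, a motif found in 14.5% of all windows. The evening element occurred at 179 to 172 bases before the PORA start and at 141 to 134 bases before the PORB start, and in 5.64% of all windows. PORB held 2 CCAATC motifs, at 219 to 214 and 22 to 17 bases, and 12.2% of all windows held at least 1. In PORC, DVR and CHLG none of these letter strings was found in the window. CHLG, whose window is not shown, followed PORB between libraries almost as closely as PORA did (r = 0.95 against 0.97). Its longest stretch in common with the PORB window was 10 bases. The longest stretch common to the PORA and PORB windows was aaatctaattctc, 13 bases at 162 to 150 before the PORA start and 123 to 111 before the PORB start. It followed the evening element after 9 bases in PORA and 10 in PORB, and the other 14 pairs of windows shared at most 7 to 12 bases. These matches describe the sequence and were not tested for binding.

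The libraries held 27362791 to 41942516 total gene reads, of which ribosomal RNA genes took 1.0% to 25.4% and plastid genes 0.915% to 23.3%. The third GNLox library without sucrose stood apart, with a normalization factor of 0.5775 where the other 17 lay between 0.7925 and 1.263. GNL rose from 13.5 ± 7.99 CPM (read counts scaled to normalized library size) in Col-0 to 5871 ± 640 CPM in GNLox without sucrose (SD, n = 3). In gnc gnl without sucrose, GNC stood at 9.0 ± 0.426 CPM against 27.4 ± 9.18 CPM in Col-0 (log2 difference -1.61 ± 0.29 SE, edgeR adjusted p = 0.0195). With sucrose the GNC difference was -1.26 ± 0.29 (edgeR adjusted p = 0.112). GNL was at 9.61 ± 2.17 CPM in gnc gnl without sucrose, a log2 difference from Col-0 of -0.49 ± 0.40 (edgeR adjusted p = 0.526). With sucrose its 3 gnc gnl libraries lay above the 3 of Col-0, at 4.12 ± 1.10 against 1.90 ± 0.808 CPM (log2 difference 1.09 ± 0.43, edgeR adjusted p = 0.252). The GNL values thus did not show the gnl mutation on either medium. As the allele is not given, read counts cannot check it. The name gnc gnl stands throughout for the libraries so labelled. Of 5 root markers, 4 (PRP3, EXPA7, LRX1 and COBL9) rose with sucrose in each genotype. The median log2 difference of the 5 was 4.73 in Col-0, 3.51 in gnc gnl and 6.22 in GNLox. The sum of all 5 ran from 64.4 to 158 CPM over the libraries. Most of it came from CASP1, the marker that was not called, at 96.4 ± 28.5 CPM in Col-0 without sucrose. With sucrose CASP1 differed by 0.24 in Col-0, 0.07 in gnc gnl and -0.22 in GNLox (log2), so the rise was not shared by all 5. The 4 that rose had means of 0.0998 to 0.463 CPM in Col-0 without sucrose and 3.03 to 16.6 CPM with it. The 6 seed storage markers summed to 0.330 to 27.3 CPM, with none called between media. The part of either tissue in the results was not tested. In bulk tissue, fewer cells of a type and less RNA per cell cannot be told apart.

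All 6 genes had only uniquely matched exon reads, so no reads were shared between the POR paralogs in the counting. PORB overlaps AT4G27450 on the opposite strand by 71 bases, PORC overlaps AT1G03620 by 121 bases and CAO overlaps AT1G44414 by 36 bases. The strand of the reads is not stated, so reads in these stretches cannot be assigned to one gene. AT4G27450, at 364 ± 22.0 CPM in Col-0 without sucrose and 238 ± 56.7 CPM with it, fell (log2 difference -0.61 ± 0.16, edgeR adjusted p = 0.0047), while the PORB values over the same libraries lay the other way. AT1G03620 fell from 4.95 ± 0.107 to 3.51 ± 0.280 CPM (-0.50 ± 0.11, edgeR adjusted p = 0.00232), and PORC lay the other way. AT1G44414 fell from 0.824 ± 0.0790 to 0.478 ± 0.102 CPM (-0.77 ± 0.31, edgeR adjusted p = 0.0479), and CAO lay the same way. The part of such reads was not tested. Intron reads made up 0.737% of PORA reads (819 of 111178, Wilson 95% interval 0.688 to 0.789%) and 0.523% of PORB reads (943 of 180289, interval 0.491 to 0.557%). They made up 2.80% of PORC reads (185 of 6602, interval 2.43 to 3.23%), 0.661% of CAO reads and 1.43% of CHLG reads, and DVR has no annotated intron. Intervals cover counting error only.

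PORA was the second most abundant of the 6 per transcript length, after PORB, in every group. Without sucrose its CPM values were 68.8, 126 and 123 in Col-0, 183, 179 and 162 in gnc gnl, and 96.5, 175 and 161 in GNLox. With sucrose they were 163, 200 and 78.3 in Col-0, 350, 276 and 273 in gnc gnl, and 88.4, 370 and 91.3 in GNLox. The gnc gnl libraries lay above all Col-0 libraries on the same medium, and the second GNLox library with sucrose lay above them as well. Group means ran from 106 ± 32.2 CPM in Col-0 without sucrose to 300 ± 44.0 CPM in gnc gnl with sucrose, a 2.83-fold range. In between came GNLox without sucrose (144 ± 41.7), Col-0 with sucrose (147 ± 62.5), gnc gnl without sucrose (175 ± 11.0) and GNLox with sucrose (183 ± 162). Every neighbour in this order overlapped the next.

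PORB had the highest level per transcript length in all 6 groups, with deposited mean TPM of 154 to 571. Without sucrose its CPM values were 94.9, 186 and 170 in Col-0, 365, 292 and 289 in gnc gnl, and 184, 313 and 262 in GNLox. With sucrose they were 257, 328 and 180 in Col-0, 524, 423 and 417 in gnc gnl, and 188, 512 and 174 in GNLox. The 3 gnc gnl libraries with sucrose lay above all gnc gnl libraries without it, and this was the only step between neighbours in the order of PORB groups without overlap. The order from the top was gnc gnl with sucrose (454 ± 60.0 CPM), gnc gnl without sucrose (316 ± 43.0), GNLox with sucrose (291 ± 192), Col-0 with sucrose (255 ± 73.8), GNLox without sucrose (253 ± 65.0) and Col-0 without sucrose (150 ± 48.5). The highest mean was 3.03-fold the lowest.

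PORC, the isoform of green tissue, was low, with 6602 reads over the 18 libraries against 180289 for PORB. Its CPM values without sucrose were 5.46, 9.50 and 7.37 in Col-0, 16.3, 11.8 and 9.01 in gnc gnl, and 10.3, 9.92 and 9.69 in GNLox. With sucrose they were 8.49, 8.97 and 9.04 in Col-0, 12.7, 13.6 and 8.34 in gnc gnl, and 10.2, 19.9 and 9.01 in GNLox. Group means spanned 7.45 ± 2.02 CPM in Col-0 without sucrose to 13.1 ± 5.98 CPM in GNLox with sucrose, and the neighbours in the order overlapped except GNLox without sucrose (9.96 ± 0.284) over Col-0 with sucrose (8.83 ± 0.299).

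**Figure D1:**
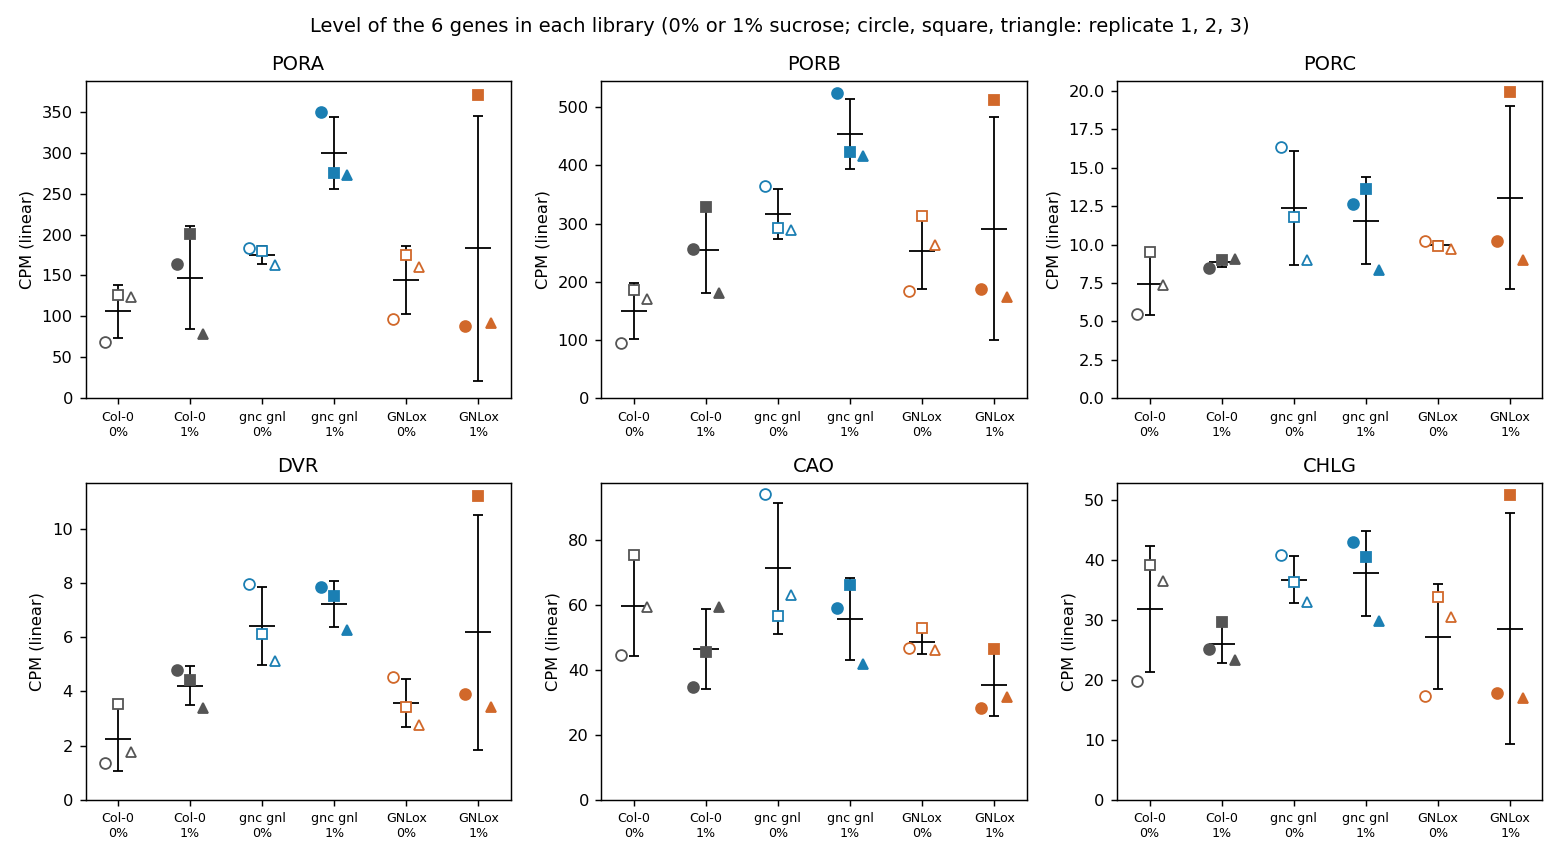
Level of PORA, PORB, PORC, DVR, CAO and CHLG in each library, in CPM on a linear axis, for Col-0, gnc gnl and GNLox without (0%) and with 1% sucrose. Points are libraries, and bars give the group mean and SD of 3; the second GNLox library with sucrose reached 370 CPM of PORA and 512 CPM of PORB, where the other 2 of that group lay at 88.4 and 91.3 CPM and at 188 and 174 CPM.

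DVR, the divinyl reductase, was the lowest of the 6, with 3152 reads over all libraries. Its CPM values without sucrose were 1.37, 3.55 and 1.76 in Col-0, 7.98, 6.14 and 5.12 in gnc gnl, and 4.52, 3.44 and 2.75 in GNLox. With sucrose they were 4.78, 4.44 and 3.41 in Col-0, 7.87, 7.52 and 6.27 in gnc gnl, and 3.90, 11.2 and 3.43 in GNLox. On both media all gnc gnl libraries lay above all Col-0 libraries. The group means ran from 2.23 ± 1.16 CPM in Col-0 without sucrose to 7.22 ± 0.840 CPM in gnc gnl with sucrose, a 3.24-fold range, the widest of the 6 genes, and each neighbour in the order overlapped the next.

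CAO ordered the groups differently. Its CPM values without sucrose were 44.5, 75.3 and 59.2 in Col-0, 94.1, 56.5 and 62.9 in gnc gnl, and 46.7, 52.9 and 46.1 in GNLox. With sucrose they were 34.6, 45.5 and 59.3 in Col-0, 58.9, 66.2 and 41.8 in gnc gnl, and 28.3, 46.5 and 31.6 in GNLox. In each genotype the mean without sucrose was the larger, with 71.2 ± 20.1 CPM in gnc gnl without sucrose at the top and 35.4 ± 9.71 CPM in GNLox with sucrose at the bottom. All neighbours in the order overlapped.

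CHLG varied least between groups, by 1.45-fold from the lowest to the highest mean. Its CPM values without sucrose were 19.8, 39.1 and 36.5 in Col-0, 40.8, 36.4 and 33.0 in gnc gnl, and 17.3, 33.7 and 30.5 in GNLox. With sucrose they were 25.1, 29.7 and 23.3 in Col-0, 43.0, 40.5 and 29.8 in gnc gnl, and 17.8, 50.8 and 17.0 in GNLox. The spread within groups was as wide as the spread between them. Means ran from 26.0 ± 3.29 CPM in Col-0 with sucrose to 37.7 ± 7.02 CPM in gnc gnl with sucrose, and all neighbours overlapped.

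The first question was whether sucrose moved these genes within a genotype. None of the 6 was called in any of the 3 genotypes by edgeR's quasi-likelihood test at a Benjamini-Hochberg adjusted p under 0.05. In Col-0, 49.8% of all tested genes were called. One of the 6, DVR, had an unadjusted p under 0.05, as did 56.2% of all genes, and in 0 of 6 did the groups of 3 libraries fail to overlap, against 59.5% of all genes. DVR had a log2 difference of 0.92 ± 0.42 (edgeR adjusted p = 0.0844) and PORB by 0.76 ± 0.37 (adjusted p = 0.098). PORA differed by 0.47 ± 0.47, PORC by 0.25 ± 0.29, CAO by -0.36 ± 0.26 and CHLG by -0.29 ± 0.37. The median over the 6 was 0.36, beside 0 over all genes. DESeq2 called none of them. The summed level of 5 photosynthetic-cell markers (LHCB1.3, LHCB3, RBCS1A, RBCS3B and PSAF) was 4740 to 8202 CPM with sucrose and 1730 to 2800 CPM without, 2 of the 5 rose, and their part in these values was not tested. With 1 library left out, DVR differed by 0.67 to 1.41 (edgeR adjusted p = 0.0229 to 0.243). It passed only without the second Col-0 library on plain medium (1.41, edgeR adjusted p = 0.0229).

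In gnc gnl, sucrose changed 32.2% of all tested genes and none of the 6 by edgeR or DESeq2, and none had an unadjusted edgeR p under 0.05, against 42.8% of all genes. The 2 groups did not overlap for PORA and PORB, as for 49.5% of all genes. PORA was higher with sucrose in 3 of 3 libraries, by 0.78 ± 0.47 on the log2 scale (95% interval -0.25 to 1.81, edgeR adjusted p = 0.226). PORB differed by 0.53 ± 0.37 (interval -0.28 to 1.33, adjusted p = 0.295). When the spread was estimated from the gnc gnl libraries alone, both were called, with edgeR adjusted p = 0.00456 for PORA and 0.0241 for PORB. The 5 photosynthetic-cell markers summed to 5994 to 9029 CPM with sucrose and 2744 to 7700 CPM without, and none of the 5 was called. The other 4 genes differed by -0.36 to 0.17, and the median over the 6 was 0.10 beside 0 over all genes.

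In GNLox, sucrose changed 54.8% of all tested genes and again none of the 6 by either tool, with 0 at an unadjusted edgeR p under 0.05 where 59.8% of all genes had one. None of the 6 had groups that did not overlap, against 54.8% of all genes. PORA, PORB and CHLG changed sign without the second library with sucrose, which was the highest of the 3 for all 6 genes. PORA differed by 0.35 ± 0.47 with it and by -0.67 without it, PORB by 0.20 ± 0.37 and -0.48, and CHLG by 0.07 ± 0.37 and -0.63. CAO was -0.46 ± 0.26 with it and passed without it (-0.69, edgeR adjusted p = 0.0441). DVR differed by 0.78 ± 0.40, and by 0.03 to 1.07 with 1 library left out. It passed only without the third library with sucrose (1.07, edgeR adjusted p = 0.0397). PORC differed by 0.39 ± 0.29, and by -0.04 to 0.61 with 1 library left out. The same 5 markers summed to 11761 CPM in the second library against 3204 and 3241 CPM in the others, and none of the 5 was without reads. Its ribosomal RNA share was 1.0%, the lowest of the 18. Their part in the result was not tested.

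The libraries labelled gnc gnl were compared with Col-0 next. GNC was lower in them, while the GNL reads given above did not show the gnl mutation. Without sucrose, edgeR called 1.29% of all genes between gnc gnl and Col-0 and none of the 6, although all 6 differences were positive. DVR, PORB and PORC had an unadjusted p under 0.05, as did 18.2% of all genes, and PORA, PORB and DVR had groups that did not overlap, as did 24.7% of all genes. DVR was 6.41 ± 1.45 CPM against 2.23 ± 1.16 CPM, a log2 difference of 1.53 ± 0.42 (95% interval 0.61 to 2.45, edgeR adjusted p = 0.0836), the lowest adjusted p among the 54 tests of the 6 genes in 9 comparisons. DESeq2 called DVR here (adjusted p = 0.011). PORB differed by 1.07 ± 0.37 (edgeR adjusted p = 0.151), PORC by 0.73 ± 0.29 (adjusted p = 0.205) and PORA by 0.72 ± 0.47 (adjusted p = 0.431). CAO differed by 0.25 ± 0.26 and CHLG by 0.21 ± 0.37. The median of the 6 was 0.73, beside -0.01 over all genes. The photosynthetic-cell markers summed to 7700, 3277 and 2744 CPM in gnc gnl and 1730 to 2800 CPM in Col-0, ranges that overlapped. All 5 of these markers had positive differences, and 0 were called. Their part in the result was not tested.

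With sucrose, edgeR called 0.16% of all genes between the libraries labelled gnc gnl and Col-0 and none of the 6, and DESeq2 called none of the 6. PORA and PORB had an unadjusted p under 0.05, as did 16.6% of all genes, and PORA, PORB, DVR and CHLG had groups that did not overlap, against 32.3% of all genes. PORA was 300 ± 44.0 CPM against 147 ± 62.5 CPM, a log2 difference of 1.02 ± 0.47 (95% interval -0.01 to 2.06, edgeR adjusted p = 0.297). PORB differed by 0.83 ± 0.37 (adjusted p = 0.282), DVR by 0.78 ± 0.40 (adjusted p = 0.335) and CHLG by 0.53 ± 0.37 (adjusted p = 0.449). PORC differed by 0.38 ± 0.29 (adjusted p = 0.48) and CAO by 0.26 ± 0.26 (adjusted p = 0.596), and for both the groups overlapped. The median of the 6 was 0.66. The markers of photosynthetic cells summed to 5994 to 9029 CPM in gnc gnl and 4740 to 8202 CPM in Col-0, ranges that overlapped. Of the 5 root markers 0 had a positive difference (median log2 -0.57). None was called, 2 had an unadjusted p under 0.05 and 3 had groups that did not overlap, beside the same shares of all genes. The part of either tissue in the result was not tested. The 2 comparisons of gnc gnl with Col-0 share no library.

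**Figure D2:**
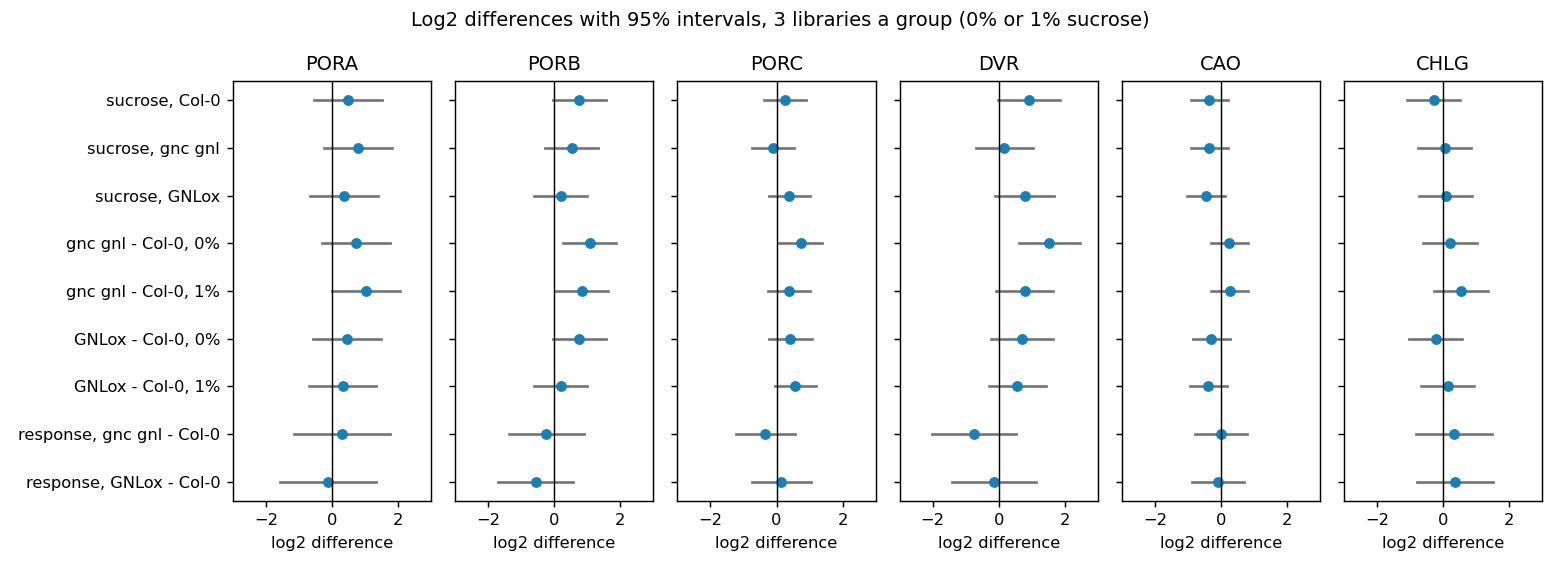
Log2 differences of the 6 genes in the 9 comparisons, from the edgeR fit, with 95% intervals as lines; rows give sucrose within a genotype, each line minus Col-0 on plain (0%) or 1% sucrose medium, and how far each line's sucrose response departs from that of Col-0. The largest is DVR in gnc gnl against Col-0 without sucrose, at 1.53 with an interval of 0.61 to 2.45.

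Overexpression of GNL was set against Col-0 in the same way. Without sucrose, edgeR called 13.5% of all genes and none of the 6, with 0 at an unadjusted p under 0.05 where 27.7% of all genes had one, and DESeq2 called none of the 6. Only PORC had groups that did not overlap, against 29.8% of all genes, with a log2 difference of 0.42 ± 0.29 (edgeR adjusted p = 0.385). PORB differed by 0.75 ± 0.37 (adjusted p = 0.201), DVR by 0.70 ± 0.43 and PORA by 0.44 ± 0.47, while CAO (-0.30 ± 0.26) and CHLG (-0.23 ± 0.37) lay below Col-0. The median of the 6 was 0.43, beside 0 over all genes. The 5 photosynthetic-cell markers summed to 2494 to 5090 CPM in GNLox and 1730 to 2800 CPM in Col-0, ranges that overlapped. Of the 5, 4 were positive and 0 were called, with a median log2 difference of 0.90. Their part in the result was not tested.

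With sucrose, edgeR called 20.4% of all genes and none of the 6, with 0 at an unadjusted p under 0.05 against 35.0% of all genes. DESeq2 called none of the 6. None of the 6 had groups that did not overlap, against 37.4% of all genes. The differences were 0.56 ± 0.29 for PORC, 0.56 ± 0.40 for DVR, 0.32 ± 0.47 for PORA, 0.19 ± 0.37 for PORB, 0.13 ± 0.37 for CHLG and -0.39 ± 0.26 for CAO. Without the second GNLox library, PORA became -0.71, PORB -0.49 and DVR -0.19. The GNLox and gnc gnl comparisons on a medium share their Col-0 libraries. The markers of photosynthetic cells summed to 3204 to 11761 CPM in GNLox and 4740 to 8202 CPM in Col-0, and their part in these values was not tested.

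Whether the sucrose response itself differed between genotypes was tested as an interaction. For gnc gnl against Col-0, edgeR called 0% of all genes and none of the 6, and 0 of the 6 had an unadjusted p under 0.05, against 7.56% of all genes. For GNLox against Col-0 it called 1.12% of all genes and none of the 6, and 0 of the 6 had an unadjusted p under 0.05, against 14.9% of all genes. DESeq2 called none of the 6 in either. The differences of response ran from -0.75 ± 0.58 (DVR) to 0.33 ± 0.52 (CHLG) for gnc gnl and from -0.56 ± 0.52 (PORB) to 0.36 ± 0.53 (CHLG) for GNLox. Over the 42 tests between groups the 95% intervals reached 0.56 to 1.04 log2 units to each side. These intervals are unadjusted and come from the fit of all 18 libraries, so they are not a limit of what could be called.

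The width of these intervals came from differences between libraries of 1 group. The SD of log2 CPM within groups was 0.634 for PORA, 0.533 for DVR, 0.499 for CHLG, 0.491 for PORB, 0.381 for PORC and 0.346 for CAO. The median of the 17487 genes with at least 2 CPM was 0.166, and 2.44% of them varied more than PORA and 5.22% more than PORB. PORA spanned 4.19-fold within GNLox with sucrose and 2.56-fold within Col-0 with sucrose, but 1.13-fold within gnc gnl without sucrose.

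Libraries that were high or low for PORB within their group were so for PORA and CHLG as well. Over the 18 deviations from group means, PORB and PORA had r = 0.97 and rho = 0.95 (exact permutation within groups, two-sided, adjusted p = 0.000375 for r and 0.000267 for rho over 5 genes). PORB and CHLG had r = 0.95 and rho = 0.92 (exact permutation, adjusted p = 0.000107 for each, where the unadjusted 2.14e-05 was the smallest that the 46656 arrangements can give). Without the 2 libraries farthest out for PORB, the second GNLox library with sucrose and the first Col-0 library without it, r was 0.96 for PORA and 0.90 for CHLG. For DVR r was 0.75 and rho 0.68 (exact permutation, adjusted p = 0.0351 and 0.0306), and for PORC r was 0.73 and rho 0.62 (exact permutation, adjusted p = 0.022 and 0.0306). Both fell to 0.54 and 0.53 without those 2 libraries. CAO had r = 0.52 and rho = 0.56 (exact permutation, adjusted p = 0.081 and 0.052), and r = 0.30 without them. The median r of PORB with all tested genes was -0.03, with quartiles of -0.45 and 0.40. Among tested genes, 0.0091316% had a larger r with PORB than PORA had, and 0.10958% had a larger r than CHLG. For DVR this share was 5.9995%, for PORC 7.0268% and for CAO 18.249%. The r of DVR and PORC was thus exceeded by many other genes and is not particular to them. The points share library, depth and tissue makeup, and the part of each was not tested.

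**Figure D3:**
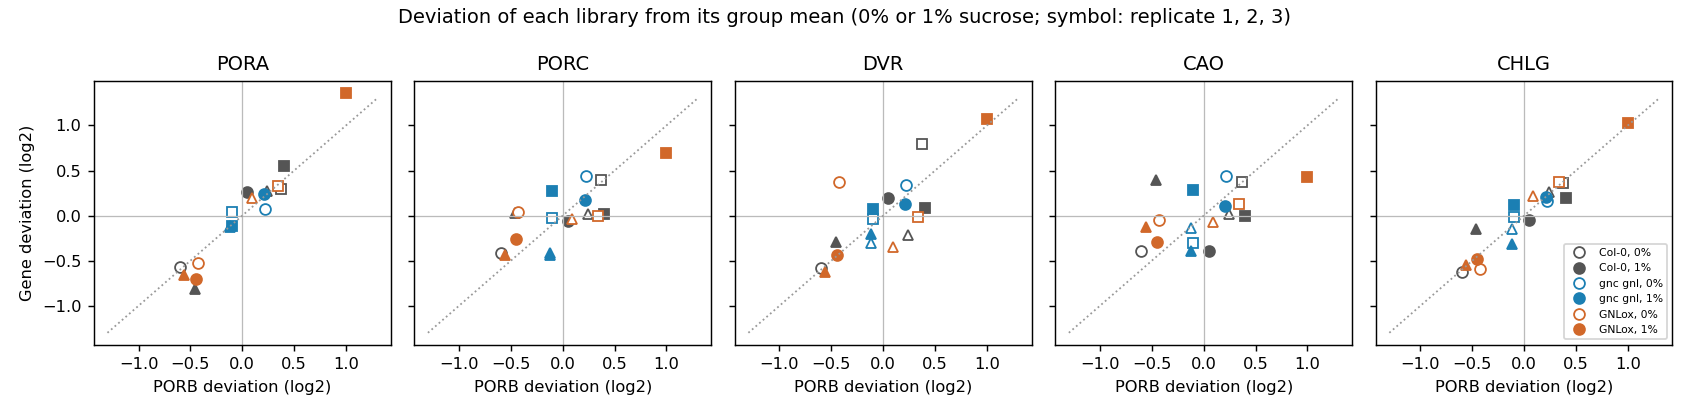
Deviation of each library from its group mean (log2 CPM) for PORA, PORC, DVR, CAO and CHLG on the vertical axis against that of PORB on the horizontal axis; colours and fill give the group and symbols the replicate number, and the dotted line marks equal deviations. PORA (r = 0.97) and CHLG (r = 0.95) lie along that line, while CAO (r = 0.52) scatters around it.

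Among the 3 oxidoreductases, PORB provided most of the transcript. In RPKM, which is scaled to transcript length, PORB made up 56.6% to 67.9% of the summed POR level in the 18 libraries, PORA 29.1% to 40.8% and PORC 1.09% to 3.23%. In Col-0 without sucrose PORA made up 40.1 ± 0.955% and in Col-0 with sucrose 34.6 ± 4.86%. It made up 34.7 ± 2.35% and 38.8 ± 0.398% in gnc gnl, and 35.0 ± 1.94% and 34.9 ± 5.26% in GNLox. None of the 6 planned tests of the PORA to PORB and PORC to PORB ratios passed (exact permutation within strata, two-sided). The lowest was PORC to PORB in gnc gnl against Col-0, with a log2 difference of -0.43 (exact permutation p = 0.05, adjusted p = 0.3 over the 6).

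The CHLG to PORB and CAO to PORB ratios had lower means with sucrose. These ratios were chosen after the values were seen, and p-values are adjusted over all 15 ratio tests, which share PORB as the denominator. The p-values come from the libraries that prompted the choice, so they cannot stand as independent evidence. With sucrose, log2 differences in Col-0, gnc gnl and GNLox were -0.29, 0.04 and 0.07 for CHLG and -0.36, -0.36 and -0.46 for CAO. For PORB they were 0.76, 0.53 and 0.20. None was called, so a change of ratio cannot be assigned to 1 gene. The CHLG to PORB ratio of RPKM was 0.195, 0.198 and 0.203 in the 3 Col-0 libraries without sucrose and 0.0673 to 0.122 in the other 15 libraries. This split of 1 group from the rest was picked after the values were seen and was not tested. That group also had the lowest mean PORB, 150 ± 48.5 CPM. Within genotypes, the mean log2 difference of CHLG to PORB with sucrose was -0.54 (exact permutation, adjusted p = 0.0075). It was -1.01 in Col-0, -0.50 in gnc gnl and -0.11 in GNLox. In GNLox the values overlapped, at 0.0890 to 0.108 without sucrose and 0.0900 to 0.0933 with it. By the same split, the CAO to PORB ratio was 0.248 to 0.332 in Col-0 without sucrose and 0.0642 to 0.233 in the others. Its mean log2 difference with sucrose was -0.86 (exact permutation, adjusted p = 0.0075), which was -1.15 in Col-0, -0.88 in gnc gnl and -0.54 in GNLox. Against Col-0, CHLG to PORB differed by -0.60 in gnc gnl (exact permutation, adjusted p = 0.05, at the threshold and not counted as passing) and by -0.55 in GNLox (exact permutation, adjusted p = 0.107). CAO to PORB differed by -0.74 in gnc gnl (exact permutation, adjusted p = 0.0563) and by -0.74 in GNLox (exact permutation, adjusted p = 0.105). The DVR to PORB ratio differed by 0.15 to 0.21 in the 3 tests, none of which passed.

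**Figure D4:**
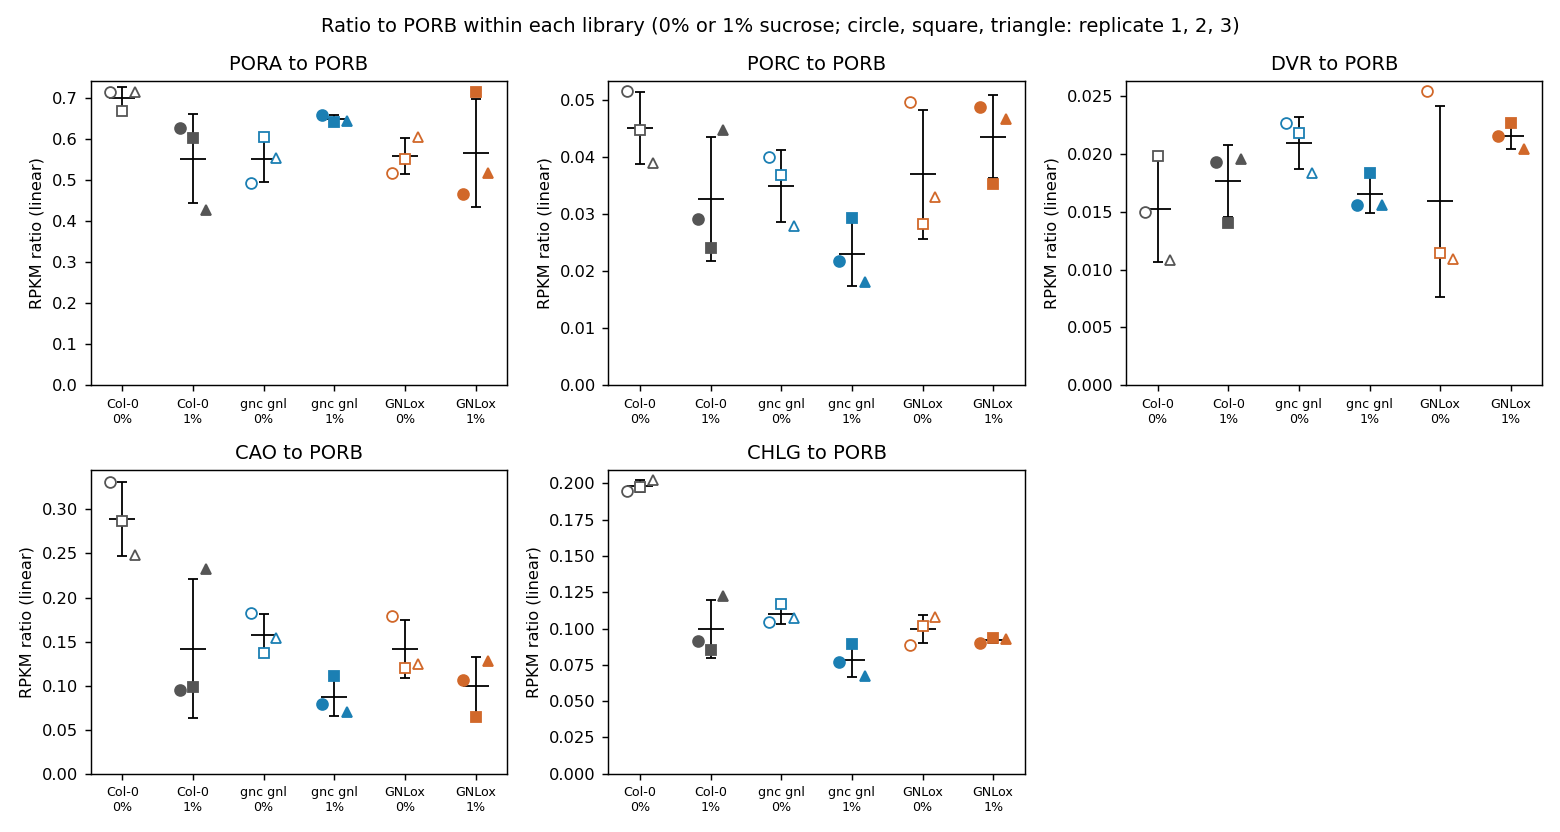
Ratio of the RPKM of PORA, PORC, DVR, CAO and CHLG to that of PORB within each library, on linear axes from 0, by genotype and sucrose; points are libraries and bars the mean and SD of 3. The CHLG to PORB ratio lies at 0.195 to 0.203 in Col-0 without sucrose and at or under 0.122 in every other library. This split was picked after the values were seen and was not tested.

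Other genes of the pathway were called with sucrose. Over all tested genes, sucrose lowered 23.8% in Col-0, 14.3% in gnc gnl and 26.1% in GNLox, and raised 26.0%, 17.9% and 28.7%. The counts of each list stand against these shares, and no list was tested as a whole. Of 7 partners of late chlorophyll synthesis, 4 fell in Col-0, 2 in gnc gnl and 4 in GNLox, and none rose. The 4 in Col-0 were CPP1, NYC1, NOL and HCAR, of which the last 3 act in turning chlorophyll b back to the a form. CHLP, LIL3:1 and LIL3:2, which serve the making of the isoprenoid tail, were not called in any genotype. The median log2 difference of the 7 was -0.68, -0.19 and -0.63 in Col-0, gnc gnl and GNLox. NYC1, a chlorophyll b reductase that turns the b form back, fell in Col-0 from 200 ± 5.63 to 96.7 ± 11.4 CPM (log2 difference -1.05 ± 0.14, edgeR adjusted p = 3.46e-05). It fell by 0.62 in gnc gnl and by 1.40 in GNLox. NOL, its partner reductase, fell by 0.75 in Col-0 and 0.95 in GNLox. CPP1, a chaperone-like protein that stabilises POR, fell from 146 ± 2.57 to 91.1 ± 10.1 CPM in Col-0 (log2 difference -0.68 ± 0.10, edgeR adjusted p = 0.000122), by 0.52 in gnc gnl and by 0.63 in GNLox. In gnc gnl against Col-0 without sucrose NYC1 had a log2 difference of -0.65 (edgeR adjusted p = 0.0326), the only call among these 7 between genotypes.

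Of the 17 genes from 5-aminolevulinate to protoporphyrin, 16 were tested, and sucrose raised 1 in Col-0, none in gnc gnl and 2 in GNLox, where 1 fell, each below the share of all genes. Their median log2 difference was -0.08, -0.01 and -0.14 in the 3 genotypes. GSA1, glutamate-1-semialdehyde aminotransferase, rose by 0.22 ± 0.08 in Col-0 and 0.45 ± 0.08 in GNLox on the log2 scale. Of 8 genes of the magnesium branch, 1 fell in Col-0, none in gnc gnl and 2 in GNLox, no more than the share of all genes lowered, with medians of -0.17, -0.12 and 0.08. CHLD, a subunit of magnesium chelatase, fell by 0.62 in Col-0 and 0.56 in GNLox, and CHLM, the methyltransferase after it, fell by 1.0 in GNLox. In the heme and bilin branch, 6 of 7 genes were tested, and FC1, a ferrochelatase, rose by 0.63 in Col-0 and 0.69 in GNLox while HO1, a heme oxygenase, fell by 0.57 and 0.81.

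Of 8 chlorophyll breakdown genes, sucrose lowered 5 in Col-0, 5 in gnc gnl and 4 in GNLox, and raised 1, 1 and 0, beside 23.8%, 14.3% and 26.1% of all genes lowered. Their median log2 difference was -0.79, -0.51 and -0.60. PPH, pheophytinase, fell by 1.07, 0.74 and 1.22 on the log2 scale in the 3 genotypes, and PAO, pheophorbide a oxygenase, by 1.33, 0.89 and 1.38. SGR2 had the lowest adjusted p of this list in GNLox (log2 difference -1.68 ± 0.18, edgeR adjusted p = 4.2e-06). CLH1, a chlorophyllase, rose in Col-0 from 1.21 ± 0.320 to 5.22 ± 2.50 CPM. Of 14 regulators linked to POR genes, 9 fell in Col-0, 7 in gnc gnl and 9 in GNLox, and none rose, beside the same shares of all genes, with medians of -0.73, -0.46 and -0.58. The 14 include GNC and GNL themselves. Both are among the 9 in Col-0, GNL is among the 7 in gnc gnl, and GNC is among the 9 in GNLox. EIN3, an ethylene response factor known to activate PORA and PORB in seedlings, fell by 0.78 ± 0.11, 0.68 ± 0.11 and 0.80 ± 0.11. FHY3 and FAR1, transcription factors of the phytochrome A pathway, fell by 0.57 and 0.75 in Col-0. In GNLox without sucrose HY5, which promotes greening in light, was lower than in Col-0 (log2 difference -1.17 ± 0.33, edgeR adjusted p = 0.03), as was GLK2, a chloroplast regulator (-1.02 ± 0.26, edgeR adjusted p = 0.0187).

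Over the 18 libraries the genes most like each of the 6 were found by Pearson correlation of log2 CPM among 17357 nuclear genes, as a description with groups, depth and tissue makeup shared. PORA was closest to PORB (r = 0.954), then GER3 (0.937) and GRF2 (0.936). PORB was closest to GER3 (0.96), PORA and AT5G14210 (0.943). DVR was closest to FAD8 (0.944), GSA2 (0.941) and ADG1 (0.926), and PORC to HEMC (0.93), TL29 (0.925) and PRXQ (0.914). CAO was closest to HEMA1, a glutamyl-tRNA reductase gene (0.952), then PGIP2 (0.93) and VTC2 (0.925), and its r with PORB was 0.26. CHLG was closest to PSA2 (0.969), RBP47A (0.968) and PAA1 (0.965).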

How the data were processed

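Total RNA of 18 seedling samples was extracted with a NucleoSpin RNA kit, per the labels' protocols. The sources used here do not give the library kit, strand, aligner or counting program. The build is TAIR10, per the submitters' processing notes. The authors deposited 1 table per library with read counts per gene (total, unique, exon and intron). The authors also deposited RPKM and TPM values, an expression value equal to RPKM, and fractions of unique exon reads and of intron reads. If the library was unstranded, reads of overlapping antisense genes add to a gene.

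The test on total gene reads used R 4.3.3 with edgeR 4.0.16 (limma 3.58.1): low-count filter, TMM scaling, 1 mean per group, robust quasi-likelihood F test with 12 residual degrees of freedom, and Benjamini-Hochberg adjustment over the 21903 genes in each of 9 comparisons, two-sided, called under 0.05. Differences are log2 ± SE and levels CPM ± SD (n = 3). Intervals are 95%, with the SE and 12 degrees of freedom. The F test adds degrees of freedom borrowed from other genes, so these intervals are slightly wider than its own. An interval can thus include 0 where the unadjusted p is under 0.05, as for PORA in gnc gnl against Col-0 with sucrose. The low-count filter also admits genes through a single group, and all 6 genes passed it. The script was tested on simulated data. DESeq2 1.42.0 was an alternative. Log2 CPM had a prior count of 0.5. Ratios used the deposited RPKM and exact permutations within genotype or medium.

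The 6 genes, the lists and the motifs were chosen with earlier results of these data known. All 6 genes were described in each comparison, in some of them by a range. Of the other lists, up to 3 called genes with the lowest adjusted p could be named, and some of these were left unnamed. Some genes were named beyond this rule, such as HCAR and the late partners that were not called. The 3 most alike genes were taken from nuclear genes that averaged 2 CPM or more. Chi square per degree of freedom between samples of 1 group was 20.8 to 725, and none were identical. Replicate numbers were checked as pairs by correlating the deviations of same-numbered libraries. In no pair of compared groups were all 3 correlations over 0.1, so no block was used.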

Additional observations from a re-analysis of the deposited data

How the results depend on the processing

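Of 828 alternative values for the 6 genes, 820 stayed on their side of the threshold and 8 newly passed it, and no call was reversed. The alternatives were DESeq2's size factors, no low-count filter, DESeq2's test, fits of the compared groups alone, a replicate block, unique reads, exon reads, nuclear genes without rRNA (added after seeing the data) and each library left out. Fitting the gnc gnl libraries alone called 2 of the 6 genes with sucrose, and DESeq2 called 1, DVR in gnc gnl without sucrose. Leaving out 1 library gave 0 to 1 called genes for sucrose in Col-0 and 0 to 1 in GNLox. In the ratios, leaving out 1 library gave -0.85 to -0.53 for CAO to PORB in gnc gnl, -0.65 to -0.52 for CHLG to PORB in gnc gnl and -0.60 to -0.47 for CHLG to PORB in GNLox, each passing only without the second Col-0 library with sucrose (adjusted p = 0.045). The 2 sucrose ratios of CAO and CHLG, chosen after the values were seen, passed in every such test.

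With the replicate block, which the pairing check did not favour, 1 of the 6 genes was called for sucrose in Col-0 (DVR, edgeR adjusted p = 0.0395) and 1 for gnc gnl without sucrose (DVR, edgeR adjusted p = 0.0413), where 500 genes were called in all against 283 without the block.

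Counts over all genes moved by over 1.5 times in these cases. For gnc gnl without sucrose 283 genes became 31 with the compared groups alone, 1040 with DESeq2 and 20 to 908 with 1 library left out. With sucrose 35 became 105, 341 and 16 to 26. For GNLox without sucrose 2964 became 1223 with the compared groups alone and 1518 to 2542 with 1 library left out, and with sucrose 4464 became 1645 and 2144 to 4596. For sucrose in gnc gnl 7063 became 4626 to 7104 with 1 library left out. The differences of response went from 0 to 69 with DESeq2 in gnc gnl and from 245 to 879 in GNLox, where leaving out 1 library gave 2 to 383. The causes were not tested. The SE of the log2 difference for sucrose in Col-0 was 0.47 for PORA, 0.42 for DVR and 0.29 for PORC.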
